A study of Homo sapiens and Mus musculus with 20 samples.

Results

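Chromatin accessibility in SW480 cells treated with 1 mM sodium butyrate (NaBu) was compared with that in untreated SW480 cells, using the 6 libraries of this experiment out of the 20 libraries of the series. SW480 is an established human colorectal adenocarcinoma line. The 3 treated libraries came from cells kept for 12 to 16 h in EMEM with FBS and 1 mM NaBu, and the 3 untreated libraries from cells kept without it. Each library was made from 50000 viable cells by Omni-ATAC, a version of ATAC-seq, where the enzyme Tn5 cuts open chromatin and tags the cut ends for sequencing. The members were chosen by the group label alone, and no other compound, dose or time point entered the comparison. Nothing in the labels states that replicates came from separate cultures, so p-values measure the spread between these libraries, which may be technical.

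Butyrate is a short-chain fatty acid that gut bacteria make from dietary fibre and that colonocytes burn as fuel. It inhibits class I and class II histone deacetylases, enzymes that remove acetyl groups from histone tails, and it is known to slow growth and to induce differentiation markers in colorectal cancer cells. Acetylated histones mark active promoters and enhancers. Promoters lie at transcription starts, and in mammals many of them are rich in CpG dinucleotides and open in most cell types. Enhancers lie away from starts and differ more between cell types.

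Overlapping peaks from the 6 libraries formed 156685 regions, and 73594 of these were present throughout. Within each library, regions were ranked by the strongest −log10 p of their peaks, on a percentile scale from 0 (no peak) to 100. A change is the difference between the mean ranks of treated and untreated libraries, in percentile points, tested with limma over the 127305 regions present in 2 or more libraries. "Higher", "lower", "rose" and "fell" refer to regions with a Benjamini-Hochberg adjusted p below 0.05. A region was "gained" where all 3 treated and no untreated libraries had a peak, and "lost" in the reverse case. In bulk cells, fewer cells with an open site and less opening per cell cannot be told apart. Ranks within a library also cannot show a shift of all sites alike.

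Markers of the line were checked first. Of 12 epithelial and colorectal genes, 10 had a promoter peak in all 6 libraries, among them EPCAM, KRT8, VIL1 and ELF3, and CDX1 and GPA33 had no tested peak. Of 12 leukocyte genes only CD14 had one in all 6, LYZ had one in 5, and the other 10, including PTPRC, CD3E and SPI1, had none. Among 8 endothelial genes 3 had a peak in all 6 libraries, while KDR, VWF and CDH5 had none. Among 8 fibroblast and smooth muscle genes 5 did, including COL1A1 and THY1, and DCN and COL3A1 had none. The summed promoter rank over the leukocyte list ran from 124 to 128 in untreated and from 90.4 to 119 in treated libraries. Over the epithelial and colorectal list it ran from 821 to 832 and from 752 to 812, so the line's own markers were also lower without overlap. Over the fibroblast list it ran from 344 to 395 and from 330 to 345, and over the endothelial list from 179 to 198 and from 168 to 186, with overlap.

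The sequence at some of the largest distal changes, taken from below the first 3 of each direction, is shown because the 3 lost regions share a short string that most distal regions lack, as described at the end. Each is a window of 200 bp centred on the region's highest summit, on the plus strand of GRCh38, 5′ to 3′. None of them overlaps an annotated exon of a protein-coding transcript. Capitals mark CACCTG or its reverse complement CAGGTG (the E-box string), CCAAT or ATTGG, and the OCT string ATGCAAAT or ATTTGCAT. First come the promoter region at PGLYRP2 and 2 distal regions that were gained, near FOSL2 and near ZFP36L1.
PGLYRP2, gained, chr19:15499078-15499277: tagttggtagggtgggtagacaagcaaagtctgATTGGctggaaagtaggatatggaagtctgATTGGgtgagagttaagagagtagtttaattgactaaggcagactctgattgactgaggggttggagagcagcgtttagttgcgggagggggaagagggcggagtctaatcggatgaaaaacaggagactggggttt
Near FOSL2, gained, chr2:28381536-28381735: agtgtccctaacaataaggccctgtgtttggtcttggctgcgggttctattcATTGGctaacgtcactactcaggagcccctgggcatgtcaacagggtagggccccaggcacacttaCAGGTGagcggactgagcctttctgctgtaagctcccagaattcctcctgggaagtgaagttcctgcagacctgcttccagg
Near ZFP36L1, gained, chr14:68819214-68819413: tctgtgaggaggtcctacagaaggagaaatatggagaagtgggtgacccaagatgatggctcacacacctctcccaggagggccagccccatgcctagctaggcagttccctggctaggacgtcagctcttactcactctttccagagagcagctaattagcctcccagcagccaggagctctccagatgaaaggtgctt

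The 3 distal regions with the largest named losses lay near DERL3, in an intron of MECOM and in an intron of RNF187. They held 1, 2 and 2 copies of the E-box string. Of the 2 gained distal regions above, the one near FOSL2 held 1 copy and the one near ZFP36L1 held 0. Not every distal gain picked by the naming rule is reported here. Promoter windows did not divide in this way. The gained one at PGLYRP2 held 0. Among those not printed, the gained ones at C15orf39 and ENSG00000268655 held 0 and 2 copies, and the lost ones at LTBP3, CHD4 and PVRIG held 1, 0 and 2. The PGLYRP2 window held 2 copies of the CCAAT string and the FOSL2 window 1.
Near DERL3, lost, chr22:23844584-23844783: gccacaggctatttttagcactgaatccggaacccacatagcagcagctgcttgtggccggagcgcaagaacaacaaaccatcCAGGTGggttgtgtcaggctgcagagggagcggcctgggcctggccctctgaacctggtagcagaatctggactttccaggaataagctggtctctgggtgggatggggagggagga
MECOM intron, lost, chr3:169366667-169366866: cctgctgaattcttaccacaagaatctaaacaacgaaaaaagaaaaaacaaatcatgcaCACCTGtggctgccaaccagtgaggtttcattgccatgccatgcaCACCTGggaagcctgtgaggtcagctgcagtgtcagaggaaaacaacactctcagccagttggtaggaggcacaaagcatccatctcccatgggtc
RNF187 intron, lost, chr1:228490579-228490778: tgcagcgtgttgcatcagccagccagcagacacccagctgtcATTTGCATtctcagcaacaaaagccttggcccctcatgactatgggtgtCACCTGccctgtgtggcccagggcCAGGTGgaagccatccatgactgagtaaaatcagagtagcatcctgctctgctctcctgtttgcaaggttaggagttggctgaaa

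Ranks changed widely with NaBu. Of the tested regions 47033 (36.9%) passed the threshold, of which 24998 (19.6%) were higher and 22035 (17.3%) lower. The median change was 24.7 points among higher and −25.1 points among lower regions, and 1503 regions rose and 1674 fell by over 50 points. Gained regions numbered 8171 (5.21% of all regions) and lost regions 4978 (3.18%). This excess of gains was absent when each list was limited to its strongest 50000 intervals, with 3423 gained and 3519 lost. Whether higher or lower calls were in the majority depended on the measure. By −log10 p 53.1% of calls were higher, and by fold enrichment 48.7%. By recovered tag pileup, scaled to its median or to the background, 47.2% or 45.0% were higher. Pileups cover only the 73594 regions with a peak in all 6 libraries, where 50.8% of calls were higher by −log10 p. The treated lists also held more intervals, although every list had 299437 to 299463 summit lines. The number of intervals thus also depends on how many summits share an interval. Untreated libraries had 108442, 120971 and 117799 intervals and treated libraries 126008, 128955 and 127119, ranges that did not overlap (two-sided exact permutation p = 0.1, the smallest that 3 against 3 libraries can give). Background pileup, a measure of depth, was 2.54 ± 0.461 tags (SD, n = 3) untreated and 2.44 ± 0.0969 (n = 3) treated and overlapped.

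Many gained and lost regions were not constant features of the untreated line. The 3 untreated SW480 libraries of the NaPr experiment, which had another date and took no part in the test, were used as a lookup. Of the gained regions 53.7% had a peak in none of them and 22.4% in all 3. Of the lost regions 22.3% had a peak in all 3 and 64.1% in none. Over all regions, 39.8% had a peak in none and 44.4% in all 3. Regions with a peak in all 6 libraries of the NaBu experiment were found in all 3 in 72.7% of cases. Most lost regions were thus open in the untreated cells of one experiment and below the listing limit in those of the other, and the part that culture, depth or list limits took in this was not tested.

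Position relative to genes divided the changes. Promoter regions, which overlap 1 kb on both sides of a start of a protein-coding transcript, had more lower than higher calls, whereas introns and intergenic regions had more higher than lower calls. In every class most regions did not pass the threshold. Of 23109 tested promoter regions 8.73% were higher and 28.8% lower, with a median change of −2.31 points. In introns 21.5% of 43072 regions were higher and 15.6% lower. Intergenic regions 10 to 100 kb from a start were higher in 22.8% and lower in 13.5% of 28137 cases. Over 100 kb away the shares were 22.8% and 14.6%, with a median change of 3.57 points. Exonic regions were close to the background of all regions, at 19.8% and 16.8%. Gained regions made up 1.84% of promoter and 6.01% of intronic regions, and lost regions 4.84% and 3.29%.

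The same split was visible in each library. The mean rank of promoter regions was 68.2, 68.3 and 67.5 in untreated and 62.5, 60.8 and 61.2 in treated libraries. Farther than 1 kb from a start it was 42.6, 43.2 and 43.3 untreated and 45.4, 46 and 45.9 treated. Neither pair of groups overlapped. The untreated libraries had 21.3 ± 0.176% (SD, n = 3) of their intervals at promoters, compared with 19.0 ± 0.198% (n = 3) after NaBu (two-sided exact permutation p = 0.1, the smallest possible). For intergenic intervals 10 to 100 kb away it was 21.3 ± 0.0773% and 22.3 ± 0.0407% (exact permutation p = 0.1).

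**Figure D1:**
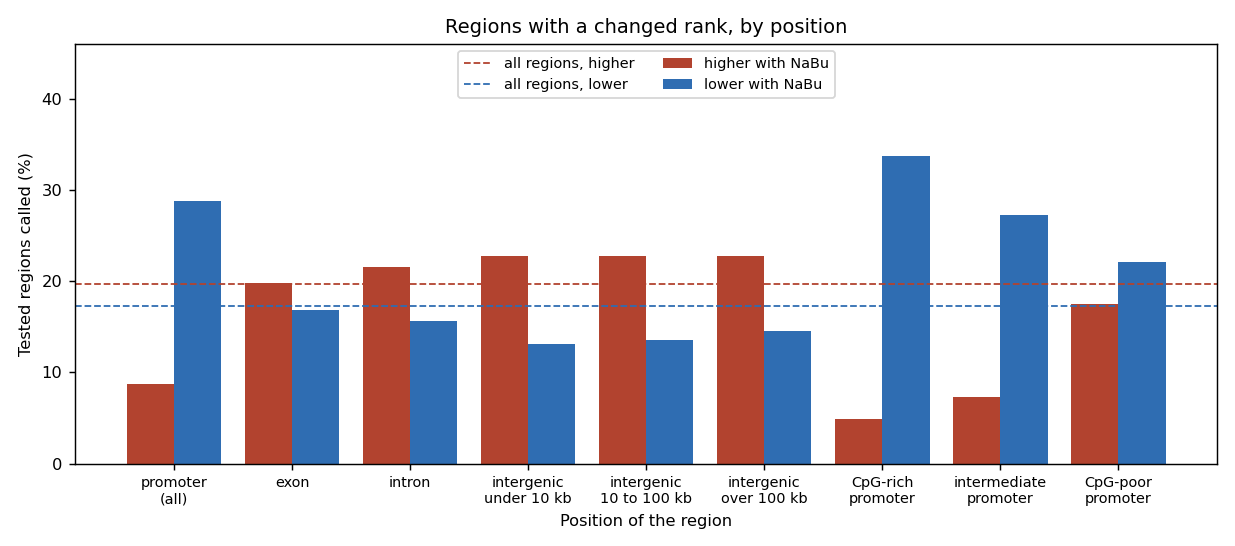
Share of tested regions called higher (red) and lower (blue) with NaBu, in percent, for each position class and for promoters by CpG content; dashed lines give the shares over all tested regions. Lower calls exceeded higher calls in the promoter classes and were fewer in the intronic and intergenic classes.

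CpG content divided promoters further. CpG-rich promoters, typical of housekeeping genes, were higher in 4.89% and lower in 33.7% of 9925 regions. Intermediate promoters followed with 7.34% and 27.2% of 7653. CpG-poor promoters, more often those of tissue-restricted genes, were higher in 17.5% and lower in 22.1% of 5531. Mean ranks of CpG-rich promoters were 73.8, 73.4 and 71.7 in untreated and 65.3, 61.9 and 62.6 in treated libraries. Those of CpG-poor promoters were 50.9, 51.6 and 52.0 and then 49.9, 50.4 and 50.4, so the gap between groups was much smaller there. Calls also differed by base composition, but not steadily. Promoter regions were also divided into 5 equal classes of GC content. In the class with the most GC (median 76%), 2.06% were higher and 41.3% lower, against 14.0% and 21.7% in the second-lowest class (median 56%). The class with the least GC (median 45.5%) had 10.8% higher and 29.5% lower, so lower calls were fewest in the second-lowest class. The part of GC content in the fall of promoters was not tested.

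Lower calls were more frequent outside the strongest promoter region of a gene, a split that was made after the values were seen. The strongest region of a gene is the one with the highest mean rank over the 6 libraries. It was higher in 7.96% and lower in 24.1% of 13556 cases, with a median change of −0.991 points. The 9553 other promoter regions, beside the main peak or at other starts, were higher in 9.82% and lower in 35.4%, with a median of −10.7 points. In number the lower calls were split almost evenly, with 3267 in strongest and 3383 in other regions. Many strongest regions rank near 100, where differences in rank are compressed, which limits the comparison of the medians. The definition also acts on the split, because a region without a peak in either group has a lower mean rank. Such a region is less often the strongest of its gene. The largest named changes below are therefore given with the strongest promoter region of the same gene. All named p-values are from limma, adjusted over all tested regions. None is given for a gained or lost region, which entered the test only through the group with peaks, so that its call was nearly fixed (8167 of 8171 gained regions were called higher and 4978 of 4978 lost regions lower).

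Among promoters the largest rise was at PGLYRP2, an amidase that cleaves bacterial peptidoglycan and the gene of the first sequence above. Its only promoter region had no peak in untreated libraries and ranks of 84.3, 86.5 and 85.5 with NaBu (change 85.4, SE 4.43). A region at a start of C15orf39 (chromosome 15, 75198702 to 75198953, GRCh38) went from no peak to ranks of 79.2, 85.1 and 78.1 (change 80.8, SE 4.77), and the gene's strongest region also rose, by 14.0 points. GALNT8, of the transferases that start mucin-type O-glycosylation, gained a region at a start (chromosome 12, 4763347 to 4764118) with ranks of 70.0, 71.2 and 73.7, and its strongest region did not pass (change −13.6, SE 7.26, limma adjusted p = 0.168). ZDHHC18, a palmitoyltransferase, gained a region with ranks of 71.8, 65.7 and 70.8, and its strongest region rose by 7.36 points. These 4 genes had gained promoter regions that were absent from every untreated list.

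SLC17A7 and STMN2, both neuronal genes, were among the gains. SLC17A7, the vesicular glutamate transporter of excitatory synapses, gained a region at a start (chromosome 19, 49441512 to 49441786) with ranks of 66.4, 66.5 and 76.6 (change 69.8, SE 5.32). The strongest region of the gene ranked 99.5 in both groups. STMN2, which regulates microtubules in growing axons, gained a region with ranks of 66.7, 71.4 and 71.1 (change 69.8, SE 4.86), next to a strongest region that did not pass (change 5.78, SE 1.99, limma adjusted p = 0.0554). At SLC1A4, a transporter of neutral amino acids, a region 916 bp from a start was gained (change 68.2) while the strongest region fell by 12.3 points. SOGA1 showed the same opposition, with a gain of 71.9 points 504 bp from a start and a strongest region at −11.7. The remaining large rises were at HIBADH, a dehydrogenase of valine breakdown (change 72.0, 643 bp from a start), and at ENSG00000268655 (change 74.2), whose strongest region fell by 6.71 points. At HIBADH the strongest region did not pass (change −0.656, SE 0.388, limma adjusted p = 0.205).

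The largest falls were in promoter regions other than the strongest one of the gene. This follows in part from how the strongest region was defined. LTBP3, which binds latent TGF-beta in the matrix, lost a region at a start (chromosome 11, 65558164 to 65558746) with ranks of 83.6, 85.7 and 86.4 before treatment (change −85.2, SE 4.45). Its strongest promoter region did not pass (change 0.418, SE 1.01, limma adjusted p = 0.770). CHD4 encodes a remodelling ATPase of the NuRD complex, which also contains histone deacetylases. It lost a region at a start (chromosome 12, 6605441 to 6606935) that ranked 79.3, 83.9 and 83.6 untreated (change −82.3, SE 4.61), while its strongest region rose from 91.6 to 97.3 (change 5.70, SE 0.455, limma adjusted p = 0.000403). PVRIG, an inhibitory receptor of lymphocytes, lost a region on chromosome 7, 100220910 to 100221828, 961 bp from a start (untreated ranks 81.1, 81.0 and 78.1, change −80.1), and its strongest region rose by 3.60 points. SLC1A5, the main glutamine transporter of many tumours, lost a region on chromosome 19, 46785992 to 46786658, 684 bp from a start (untreated ranks 73.6, 68.6 and 77.7, change −73.3), and its strongest region rose by 9.80 points (SE 2.46, limma adjusted p = 0.0174).

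The same held for the other named falls. UBA6, a ubiquitin-activating enzyme, lost a region 415 bp from a start (change −77.0), and UBE2J2, a ubiquitin-conjugating enzyme of the endoplasmic reticulum, lost one 12 bp away (change −73.0). BCL9L, a coactivator of beta-catenin, lost a region 211 bp from a start with untreated ranks of 76.9, 72.3 and 75.7. The co-chaperone gene DNAJC7 (change −73.0) and the kinase gene STK24 (change −72.8) lost a region as well. The strongest promoter regions of these 5 genes did not pass the threshold, with changes between −4.83 and 7.66 points. At PAFAH1B2 the fall of 75 points left a peak of rank 18.0 in treated replicate 1 and none in the other treated libraries. The strongest PAFAH1B2 region did not pass (change −0.329, SE 0.497, limma adjusted p = 0.626).

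**Figure D2:**
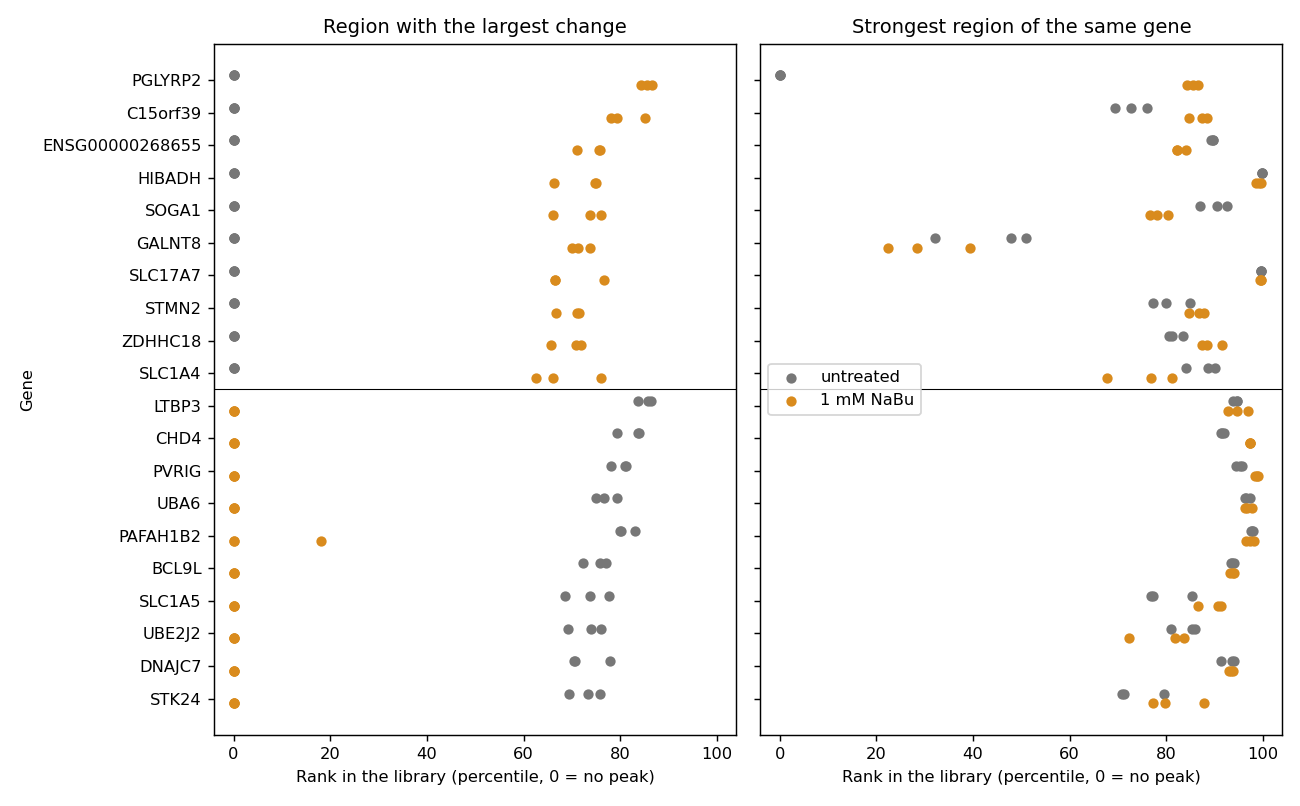
Percentile rank in each of the 6 libraries (x axis; 0 = no peak) for the 20 genes with the largest promoter changes; the left panel shows the region that changed most and the right panel the strongest promoter region of the same gene, with untreated libraries in grey and treated libraries in orange. The groups are far apart on the left and close together for most genes on the right, where many ranks are near 100.

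Away from promoters, the largest changes after those at the very top of the ranking lay at the following sites. An intergenic region 10799 bp from a start of FOSL2, which encodes an AP-1 subunit, went from no peak to ranks of 83.0, 82.5 and 86.8 (change 84.1, SE 4.54). A further gained region lay 22986 bp from ZFP36L1, an RNA-binding protein that promotes mRNA decay, with ranks of 81.9, 82.3 and 85.9 (change 83.4). Intergenic regions 128738 bp from MED13L, a Mediator subunit, and 45212 bp from FRMD1 rose by 82.3 and 80.5 points. A region 7921 bp from PIANP, overlapping the small nuclear RNA gene RNU6-781P, rose by 81.1 points. All 5 had no peak in untreated libraries.

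The distal losses lay elsewhere. A region 5229 bp from DERL3, of the pathway that degrades misfolded proteins, ranked 83.4, 87.8 and 84.4 in untreated libraries and had no peak with NaBu (change −85.2, SE 4.52). At an intronic site of MECOM, a zinc finger transcription factor gene, untreated ranks of 83.8, 82.6 and 87.8 also went to 0 (change −84.7). RNF187, a ubiquitin ligase gene, lost an intronic region 2733 bp from its start (untreated ranks 84.0, 83.6 and 84.1, change −83.9). MYT1, a neural zinc finger factor gene, lost a region over an exon (chromosome 20, 64222816 to 64223239, change −83.7). Regions 220277 bp from NOL4 (change −83.2) and in an intron of TSPEAR (change −82.7) were lost in the same way.

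The genes with the most gained regions were long, and long genes hold more regions. Of 18288 protein-coding genes with a region in the gene or 5 kb on both sides, 3823 had a gained region, 3194 a lost one and 1052 both, and 54 gained and 26 lost 5 or more. The counts below stand against 5.21% gained and 3.18% lost over all regions, and 17.8% higher and 19.2% lower over the tested regions in the genes and 5 kb around them. Some are not far from these shares, such as the gains of CDH4 and the higher calls of RUNX1. ZFHX3, a homeobox factor gene, gained 10 of its 72 regions and lost 2. OPCML and NTM, neighbouring genes of IgLON adhesion proteins, gained 8 of 53 and 7 of 79. CTNND2, the gene of delta-catenin, gained 7 of 32 and lost 0. Its mean rank over tested regions was 15.2, 14.0 and 12.1 in untreated and 34.5, 35.5 and 34.9 in treated libraries, the widest gap among these genes. ADCY2, an adenylyl cyclase gene, gained 6 of 29, with 13 higher and 0 lower calls among 23 tested regions. The cadherin gene CDH4 gained 7 of 85, the lysine methyltransferase gene SMYD3 7 of 46 and the transcription factor gene BACH2 6 of 30.

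The transcription factor gene RUNX1 lost 13 of its 158 regions and gained 4, with 23 higher and 34 lower calls among 131 tested. HDAC4, a class II histone deacetylase, lost 10 of 86 and gained 1. Of its 74 tested regions 6 were higher and 28 lower, with a median change of −19.1 points. Mean ranks at HDAC4 were 49.0, 50.5 and 51.4 in untreated and 35.5, 34.4 and 37.2 in treated libraries. The strongest HDAC4 promoter region did not pass (change 0.339, SE 1.01, limma adjusted p = 0.817), whereas a region 889 bp from a start was lost (change −41.1, SE 5.35). SMAD3, which carries TGF-beta signals to the nucleus, lost 6 of 37 regions, and the retinoid receptor gene RXRA lost 6 of 35. PCDH9, a protocadherin gene, lost 6 of 21, with mean ranks of 45.0, 46.5 and 44.7 untreated and 30.4, 27.8 and 30.5 treated. PLEC lost 8 of 34, the guidance factor gene SEMA3A 8 of 75 and the adaptor gene BCAR3 6 of 57. In each of these 8 genes the treated libraries ranked below the untreated ones. The genes were chosen by these counts, so their mean ranks are a description.

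**Figure D3:**
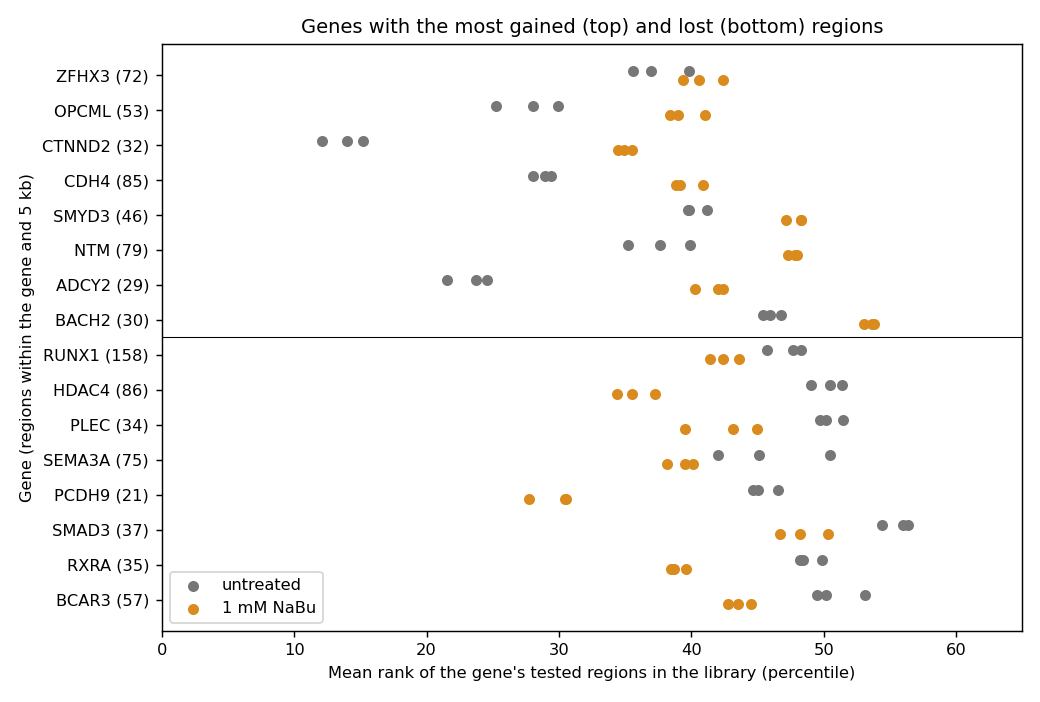
Mean percentile rank of a gene's tested regions (x axis) in each untreated (grey) and treated (orange) library, for the 8 genes with the most gained regions (top) and the 8 with the most lost regions (bottom); the number of regions is in parentheses. The groups separate at 15 of the 16 genes, and at ZFHX3 they overlap.

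Changes were also uneven along chromosomes. Of 2026 windows of 1 Mb with at least 20 tested regions, 1143 held more higher than lower calls and 755 the reverse. The windows named are the extremes, to be read against 19.6% higher and 17.3% lower over all tested regions. The largest excess of higher calls was in the window of chromosome 8 from 127000001 to 128000000, which holds MYC and POU5F1B, with 52 higher and 17 lower among 160 regions. Regions over 1 kb from a start gave 52 higher and 13 lower there, and promoter regions 0 higher and 4 lower. The strongest MYC promoter region ranked at 99.99 in both groups (change 0.0063, SE 0.29, limma adjusted p = 0.989). Another region 147 bp from a start was lost from untreated ranks of 70.8, 69.3 and 67.2. The fold enrichment of this lost region was only 1.97, 1.93 and 1.88 in the untreated libraries. The kallikrein and SHANK1 window of chromosome 19 from 50000001 had 47 higher and 15 lower among 163 regions. The window of chromosome 20 from 46000001, with the matrix metalloproteinase gene MMP9, had 35 higher and 4 lower among 89. The window of leukocyte receptor genes on chromosome 19 from 54000001 had 36 higher and 7 lower among 114.

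The largest excess of lower calls was in the window of chromosome 21 from 43000001, with CBS and SIK1, which had 5 higher and 56 lower among 125 regions. Promoters were 15 of these regions and held 12 of the lower calls. Next came the window of chromosome 20 from 62000001, with LAMA5 and GATA5, at 23 higher and 66 lower among 222. Its 53 promoter regions held 23 of the lower calls. The window of chromosome 22 from 46000001, with the lipid sensor gene PPARA, had 8 and 49 among 127, with 10 lower among 20 promoter regions. On chromosome 18 from 10000001, with the WNT inhibitor gene APCDD1 and the ion channel gene PIEZO2, the counts were 8 and 49, and only 5 of the 113 regions were promoters. The window of chromosome 1 from 1000001, with ISG15 and AGRN, had 15 higher and 56 lower among 156. Promoters were 54 of these regions and held 26 of the lower calls. Among the autosomes, 22 had the fewest higher (13.4%) and the most lower calls (25%), and 7 had the most higher calls (23%, with 14.9% lower).

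Gene lists were read against the promoter background of 8.73% higher and 28.8% lower. HOX genes, which encode positional transcription factors, had fewer higher and more lower calls than this. Of their 73 promoter regions 2 (2.74%) were higher and 32 (43.8%) lower, and within the genes and 5 kb around them 7 of 159 were higher and 58 lower. The mean rank of HOX promoter regions was 62.4, 59.7 and 58.5 in untreated and 45.7, 44.3 and 45.1 in treated libraries. At HOXA10 a region 592 bp from a start fell by 50.8 points (SE 9.81) and the strongest region did not pass (change 0.209, SE 0.352, limma adjusted p = 0.666). TGF-beta receptors, ligands and SMADs had 5 higher and 30 lower (45.5%) of 66 promoter regions. SMURF2, a ubiquitin ligase for SMADs, lost a promoter region (change −58.1), and its strongest region did not pass (change −0.803, SE 1.92, limma adjusted p = 0.769). At the inhibitory SMAD7 a region was lost (change −51.2) while the strongest region rose by 5.24 points.

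WNT targets and intestinal stem cell genes had 8 higher and 33 lower (40.7%) of 81 promoter regions. AXIN2, a negative regulator of WNT signalling, lost a region 917 bp from a start (untreated ranks 60.7, 70.8 and 59.0), and its strongest region did not pass (change −4.80, SE 3.59, limma adjusted p = 0.311). At PROM1 a region at a start was gained (change 47.1) and the strongest region fell by 22.3 points. EGFR and MAPK feedback genes had 4 higher and 29 lower (37.7%) of 77, with losses of regions at the phosphatase genes DUSP4 (change −68.5) and DUSP5 (change −66.4). The strongest region of DUSP4 did not pass (change −4.04, SE 3.01, limma adjusted p = 0.310), and that of DUSP5 was lower (change −11.5, SE 3.44). Of 18 promoter regions of Kruppel-like factors 0 were higher and 6 lower (33.3%), a share of lower calls near the background. Of 10 at metallothioneins, which bind zinc and copper, 0 were higher and 5 lower, at 6 genes. These counts rest on few regions. Cyclin-dependent kinase inhibitors, G1 cyclins and kinases were near the background, with 4 higher and 12 lower (31.6%) of 38. The strongest region of CDKN1A, which encodes the inhibitor p21, did not pass (change −0.840, SE 1.22, limma adjusted p = 0.612), and a region 484 bp from a start was gained with ranks of 42.7, 19.8 and 30.4.

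Other lists had more higher and fewer lower calls than the background. Their promoter counts rest on few regions. Cancer-testis genes, normally active in germ cells, had 7 higher (36.8%) and 1 lower of 19 promoter regions. This majority of higher calls was absent with recovered pileups, which need a peak in all 6 libraries and gave 1 higher and 2 lower. SPANXB1 rose from ranks of 0, 35.2 and 25.3 to 80.7, 82.7 and 80.0 (change 61.0, SE 8.59, limma adjusted p = 0.00194), although SPANX genes are near-identical copies whose reads can be shared. Clustered protocadherins, which are neuronal adhesion proteins, had 4 higher (21.1%) and 1 lower of 19. PCDHA11 was gained with ranks of 36.3, 43.1 and 37.7. Synaptic and neuronal genes had 141 higher (24.0%) and 86 lower (14.6%) of 588 regions in the genes and 5 kb around them, against 17.8% and 19.2% over all protein-coding genes. Olfactory receptor genes had 24 higher (22.4%) and 5 lower (4.67%) of 107, and 3 higher and 3 lower of 18 promoter regions. Most regions of these last lists are not promoters. Over 1 kb from a start, 22.1% of all tested regions were higher and 14.8% lower, so their shares of higher calls were near that background.

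Differentiation genes of the gut moved both ways. Goblet cell and mucin genes had 7 higher and 4 lower (11.4%) of 35 promoter regions, but lower calls were more numerous among regions with a peak in all 6 libraries, in the strongest 50000 intervals and with recovered pileups. FCGBP, a mucus-layer protein gene, rose at its strongest promoter region from ranks of 0, 21.7 and 28.4 to 62.0, 63.1 and 55.6 (change 43.5, SE 7.92, limma adjusted p = 0.00505). The strongest region of MUC5B, a secreted mucin gene, rose by 25.2 points (SE 3.10, limma adjusted p = 0.00120). By contrast the trefoil factor gene TFF3 fell at its strongest promoter region, from ranks of 91.4, 89.2 and 91.2 to 63.9, 61.5 and 62.4 (change −28.0, SE 1.64, limma adjusted p = 0.000291), and MUC5AC fell by 24.1 points. Enterocyte markers had 4 higher and 9 lower of 42, with a rise of CEACAM5 from 94.6 to 98.1 and a fall of ANPEP from 52.8 to 6.26. Intestinal lineage factors had 12 higher (17.6%) and 24 lower (35.3%) of 68. At CDX2, the master regulator of intestinal fate, a region at a start was gained with ranks of 51.7, 62.4 and 57.9, while the strongest region fell from ranks of 67.4, 65.4 and 66.5 to 58.4, 25.8 and 41.6 (change −24.5, SE 7.76, limma adjusted p = 0.0411).

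Housekeeping lists had few higher calls and no more lower calls than the promoter background. Cytoplasmic ribosomal protein genes had 5 higher and 26 lower (22%) of 118 promoter regions, oxidative phosphorylation subunits 2 and 29 (27.6%) of 105, and proteasome subunits 1 and 14 (25%) of 56, although ranking by fold gave 8 and 6 for the proteasome. Replication-dependent histone genes had 2 higher and 19 lower (21.6%) of 88, and genes of DNA replication and mitosis 2 and 14 (19.2%) of 73. Histone deacetylases and sirtuins had 3 higher and 7 lower of 34 promoter regions but 53 lower (27.9%) of 190 in the genes and 5 kb around them, 28 of which were the regions of HDAC4. Receptors, transporters and enzymes of short-chain fatty acids had 7 higher and 15 lower of 58. A region near a start of the acyl-CoA synthetase gene ACSS3, which overlaps a start of LIN7A, was gained (change 43.0). The strongest ACSS3 region did not pass (change −3.62, SE 1.26, limma adjusted p = 0.0579). The lactate transporter gene SLC16A3 lost a region (change −47.4), and its strongest region was also lower (change −7.83, SE 1.10). All lists were written with earlier results of these data known, and none was tested as a set.

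**Figure D4:**
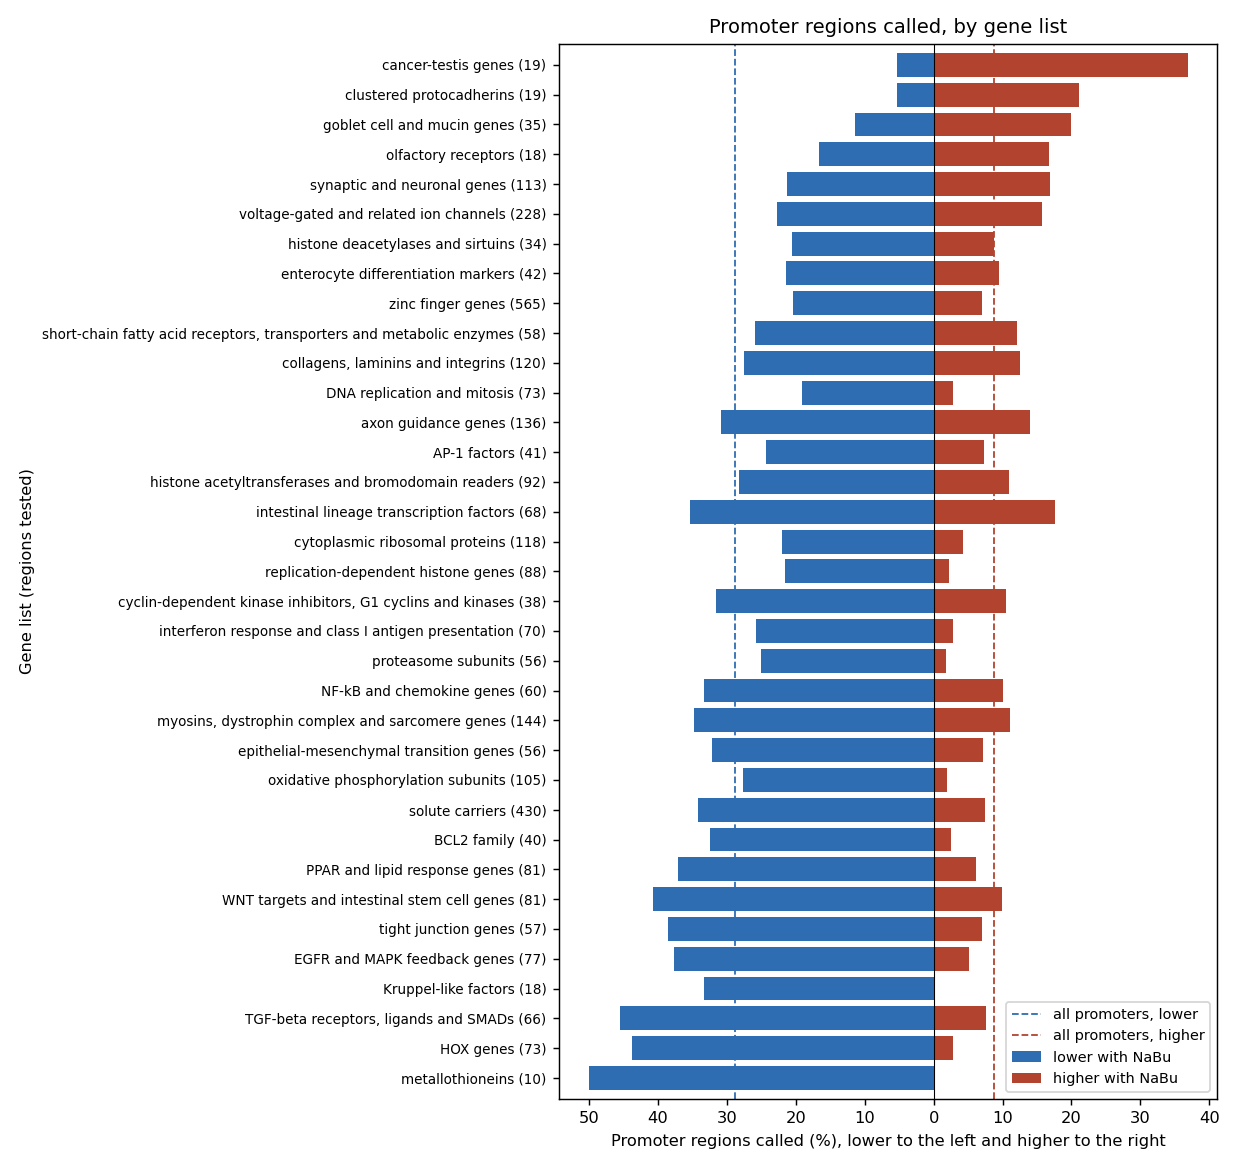
Share of promoter regions called lower (blue, to the left) and higher (red, to the right) with NaBu, in percent, for each of 35 gene lists with its number of tested regions; dashed lines mark the shares over all promoters (28.8% lower, 8.73% higher). Metallothioneins, HOX genes and TGF-beta genes stood farthest to the left, and cancer-testis genes farthest to the right.

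Short strings, read on either strand, were searched in the same 200-bp summit windows of all tested regions. The AP-1 string TGANTCA was present in 27.6% of higher, 18.3% of lower and 21.7% of uncalled regions over 1 kb from a start, against 22.5% of all of them, and in 13.7%, 6.47% and 6.92% of promoter regions. The string CACCTG, an E-box, was added after the sequences had been seen and went with losses. Over 1 kb from a start (distal regions) it was present in 23.4% of all regions, in 53.8% of those that fell by over 50 points and in 12.4% of those that rose by over 50 points. Lost regions held it in 39.4% and gained regions in 15.7% of cases. These shares are descriptions without a test, and a match does not show that a factor binds there.

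The share of lower calls climbed with the number of copies. Among distal regions with 0, 1, 2 and at least 3 copies, 12.0%, 21.0%, 34.0% and 50.4% were lower and 23.8%, 17.4%, 12.8% and 6.04% higher. The 712 distal regions with at least 3 copies had mean ranks of 57.0, 56.3 and 56.6 in untreated and 37.2, 38.1 and 37.8 in treated libraries. The 79771 without a copy went the other way, from 41.1, 41.9 and 41.9 to 45.7, 46.3 and 46.1. Promoter regions followed the same order, with 27.1% lower at 0 copies and 54.3% at 3 or more. Base composition was compared directly. In each of 5 equal GC classes of distal regions, those with the string were lower more often than those without, for example 21.2% against 9.43% in the middle class. The order was the same for ranks by fold enrichment (20.5% against 10.5% lower) and for pileups scaled to the background (30.1% against 18.2%).

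**Figure D5:**
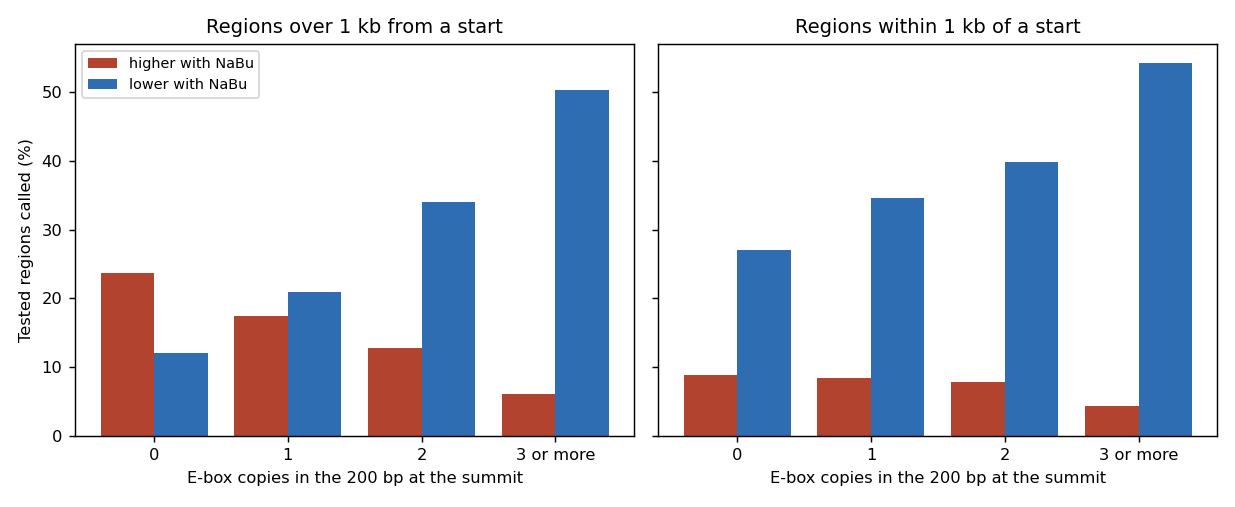
Share of tested regions called higher (red) and lower (blue) with NaBu, in percent, by the number of CACCTG copies (0, 1, 2, 3 or more) in the 200 bp at the summit, for regions over 1 kb from a start (left) and within 1 kb (right). Lower calls increased from 12.0% to 50.4% on the left and from 27.1% to 54.3% on the right.

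The CCAAT string had 2, 3 and 0 copies in the windows of the gained promoters PGLYRP2, C15orf39 and ENSG00000268655. Among all promoter regions it was as frequent in uncalled (26.7%) as in higher promoter regions (26.3%), and less so in lower ones (16.7%). A string from Alu repeats, GTAATCCC, also added after the values were seen, was present in 3.70% of gained and 0.801% of lost distal regions, against 1.58% of all distal regions. Reads from repeat copies can be placed uncertainly. RUNX strings (TGTGGTT, 10.0% of higher and 10.9% of lower) and TEAD strings (GGAATG, 17.2% and 16.8%) were about as frequent in both directions among distal regions.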

How the data were processed

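Per the labels, the ATAC-seq libraries came from SW480 cells with or without NaBu, which also give the group and replicate number of each library. The submitters' processing notes name bcl2fastq 2.17.1, cutadapt 1.9.1, Bowtie2 2.3.1 and MACS2 2.1.0, and the authors called peaks in each library in the ENCODE pipeline on GRCh38. The deposited lists give for each summit the fold enrichment (a ratio over local background) and the −log10 p and −log10 q, with 299437 to 299463 summit lines per library. A missing peak means only that none passed the list's limit (lowest −log10 p between 7.25 and 9.38). Reads were not analysed here.

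Intervals sharing 1 bp or more were joined into regions (bedtools 2.31.1, Python 3.11.15). Percentile ranks were tested with limma 3.58.1 in R 4.3.3 (lmFit and eBayes with trend, two-sided, Benjamini-Hochberg over 127305 regions, threshold 0.05), after the script had been tested on simulated data. The design is 3 against 3 libraries without covariates. Single values per library were compared with exact permutation tests. Tag pileups were recovered from fold and −log10 p for regions with a peak in all 6 libraries, as an alternative scale. Regions were placed on GENCODE 44 with 78567 starts of protein-coding transcripts. CpG-rich means an observed over expected CpG ratio of at least 0.75 with at least 55% GC within 500 bp on both sides of the start, and CpG-poor a ratio below 0.48. Named are the 10 largest promoter changes in each direction with groups that do not overlap, 6 distal changes in each direction after the first 3, the 8 genes with most gained and the 8 with most lost regions, 5 windows in each direction, and up to 2 promoters per list and direction, of which some are printed. A few of these items are not reported here. The libraries were chosen by their group label, and the gene lists were written with earlier results of these data known. The E-box, CCAAT and Alu strings and the split by strongest region were chosen after the values were seen. Alternatives were ranks by fold, other filters, summit windows, a replicate block, pileups and leaving out each library.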

Additional observations from a re-analysis of the deposited data

How the results depend on the processing

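The excess of promoters among lower calls kept its direction in every alternative run. The share of promoters among lower calls exceeded that among higher calls by 22.1 percentage points, by 11.4 when ranked by fold enrichment and by 38.0 with pileups of either scaling, and by 19.1 to 25.3 without 1 library. Ranking by fold gave 16603 higher calls. Requiring a peak in all 6 libraries gave 29714 calls (15084 higher, 14630 lower), since fewer regions were tested. The strongest 50000 intervals of each list gave 24007 calls (12361 higher, 11646 lower), with 6942 gained or lost regions, of which 3423 were gained and 3519 lost, so the excess of gains was absent. Regions built from summit windows, which are more numerous, gave 72365 calls (34882 lower), with 20257 gained or lost and 9375 lost. Without 1 library there were 40361 to 45701 calls and 5982 to 7565 lost regions, the highest without untreated replicate 1, against 4978 with all 6. A −log10 q of at least 2 removed nothing, and one of at least 10, chosen after seeing the data, left 40771 calls (21966 higher, 18805 lower). Same-numbered libraries hardly deviated together (r = 0.023, 0.007 and 0.013), against −0.022 to 0.010 for differently numbered ones. With so few libraries these values neither show nor exclude a pairing by number. A fit with the replicate number as a block gave 45978 calls (23906 higher, 22072 lower). Covered length was 3.67 Mb greater in treated libraries, but changed by −2.22 Mb among the strongest 50000 intervals, where the exonic share differed by 0.0847 percentage points in the other direction. The difference in median interval width was −2 bp and ran from −24.5 to 30.5 bp without 1 library, positive without untreated replicate 1 (30.5 bp) or treated replicate 2 (0.5 bp). The causes of these shifts were not tested. Most named promoter and distal regions have no peak in one group, so their calls under other settings are not given as support. Recovered depth limits what a missing peak can show.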
